A study of Mus musculus with 8 samples.

Results

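The genes described here are the nuclear genes of oxidative phosphorylation (OXPHOS) and their close namesakes, chosen by name: every probe whose gene name begins with Nduf, Uqcr, Cox4 to Cox8 or Atp5, or is Sdha, Sdhb, Sdhc or Sdhd. The rule found 90 gene names on 134 probes, of 30175 gene names on 39429 probes in all. They were measured in E14 mouse embryonic stem cells (ESCs), grown without feeders on gelatin in serum and LIF, on 1-colour Agilent arrays. Each of 4 groups had 2 biological replicates, A and B: control KD (a lentiviral short hairpin against EGFP, also written GFP in the study's design), Tip60 KD, Hdac6 KD, and double KD, in which Tip60 and Hdac6 were knocked down together. All cells were infected with hairpin lentivirus and collected 72 h later, and per the study's methods 1 hairpin stood for each gene, so an effect of the hairpin sequence and an effect of the gene it targets cannot be told apart. Tip60, the product of Kat5, acetylates lysines. Hdac6 belongs to the histone deacetylase family, and its well-known substrates are cytoplasmic. The study reports that in ESCs Hdac6 was largely nuclear and co-purified with Tip60. The comparisons ask what loss of either enzyme, or of both, did to the transcripts of this pathway.

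In OXPHOS, electrons from NADH and succinate enter the inner mitochondrial membrane at complex I and complex II, pass through complex III and cytochrome c to complex IV, and reduce oxygen. Complexes I, III and IV pump protons, and complex V, the ATP synthase, lets the protons back through a rotating ring of c subunits while it makes ATP. Most subunits are nuclear genes whose proteins are imported, and a few core subunits are made from mitochondrial DNA. Pluripotent cells rely strongly on glycolysis, and the balance between glycolysis and OXPHOS shifts as they differentiate.

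The probe sequences matter for reading some of these genes, Atp5g1 among them. Atp5g1, Atp5g2 and Atp5g3 encode the same mature c subunit behind different import signals, and Atp5g1 carried 2 probes that gave opposite results. The last 30 bases of each 60-base probe are shown, with a repeated CAA in capitals. Positions come from the array files (mouse build mm9, minus strand).
Atp5g1 RefSeq probe A_55_P2001683, chr11:95934315-95934374: tttaccattaaaCAACAACAACAACAACAA
Atp5g1 Ensembl probe A_55_P1956064, chr11:95930317-95930376: gagttggctcagtggttaagagcgccgact
Atp5g3 probe A_55_P2046703, chr2:73746519-73746578: tatatgttatttccacagtcatttcattaa
The RefSeq probe is matched in the files to a RefSeq transcript of Atp5g1 and ends in 6 CAA units. The Ensembl probe is matched to an Ensembl transcript and starts 3998 bases away in the direction of transcription, whereas the RefSeq gene spans 2902 bases in build GRCm38.p6. A span of that length could not hold both probes. Probes of other genes named below shared at least 20 bases in a row with probes under other names. They were the Atp5g2 probe with the larger changes, both Atp5h probes, 1 Uqcrq probe and the Cox6c and Atp5b probes. The part of such shared sequence in their values was not tested.

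Values are log2 of a probe's background-corrected signal over the 75th percentile of its array, so that 0 is a fairly bright probe, and a common floor lay at -2.782. Changes are differences of these values between groups from 1 limma fit over all 8 arrays, with Benjamini-Hochberg adjustment over all 22518 probes kept, and a probe was called where its adjusted p was under 0.1. Of the 134 OXPHOS probes, 127 passed the filter on dim signal and 125 of these stood above background and the floor on all 8 arrays. The 7 probes left out took 3 genes with them (Cox7b2, Cox8b and Cox8c, isoforms known from testis, muscle or both), and 87 genes remained. Kat5 was at 1.25 and 1.30 in control KD, -0.10 and -0.08 after Tip60 KD, 1.43 and 1.44 after Hdac6 KD, and -0.19 and 0.12 after double KD. Hdac6 was at 2.13 and 2.10 in control KD, 1.65 and 1.68 after Tip60 KD, -0.37 and -0.40 after Hdac6 KD, and 0.21 and 0.26 after double KD. Each targeted transcript was thus lowest where its hairpin was used, and Hdac6 was also called lower in Tip60 KD (-0.45, adjusted p = 0.00484, limma). All 10 ESC markers looked up passed the filter, and 5 of them were called after Tip60 KD (3 higher, 2 lower), 3 after Hdac6 KD (2 higher, 1 lower) and 4 after double KD (3 higher, 1 lower). Over all genes, each counted by its probe of highest signal, 40.7%, 30.3% and 34.0% were called. The marker counts thus lay near the background. Pou5f1, which encodes the pluripotency factor Oct4, was higher in each knockdown (0.99, 0.46 and 0.62), Zfp42 was higher in Tip60 KD (0.44) and double KD (0.36), and Tcl1 was lower in Tip60 KD (-0.53) and Hdac6 KD (-0.27). Of 6 fibroblast markers 4 passed, and Col1a1 and Thy1 were called higher in Tip60 KD (0.96 and 0.46) and also in double KD (0.79 and 0.53), with Col1a1 no higher than -1.40 on any array, and Col1a2 and Postn below the filter. Of 5 primitive endoderm markers 2 passed and none was called. The part of these marker shifts and of other cell types in the results was not tested. In bulk RNA, fewer cells of a type and less RNA per cell cannot be told apart. Local background differed between arrays, from 37.2 to 114.3, and was highest on control KD replicate B.

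OXPHOS transcripts were mostly lower than control KD in every knockdown, by modest amounts. In Tip60 KD, 61 of 127 probes fell and 13 rose, with a median change of -0.28 against 0.05 for all probes tested. In Hdac6 KD, 62 fell and 6 rose, with a median of -0.30 against 0.03. In double KD, 46 fell and 6 rose, with a median of -0.21 against 0.05. As background, 41.3% of all probes tested passed in Tip60 KD (21.0% lower, 20.2% higher), 30.8% with Hdac6 KD (16.0% lower, 14.8% higher) and 34.6% with double KD (17.9% lower, 16.8% higher). The OXPHOS probes were therefore called lower more often than the background (48.0%, 48.8% and 36.2%) and called higher less often (10.2%, 4.72% and 4.72%), which is a description of these counts and not a test. Seen array by array, the median OXPHOS probe lay below its control KD mean by 0.25 and 0.30 in Tip60 KD, by 0.28 and 0.30 after Hdac6 KD, and by 0.19 and 0.24 after double KD. The plots of members by complex and by array show how broad and how shallow the decrease was.

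**Figure D1:**
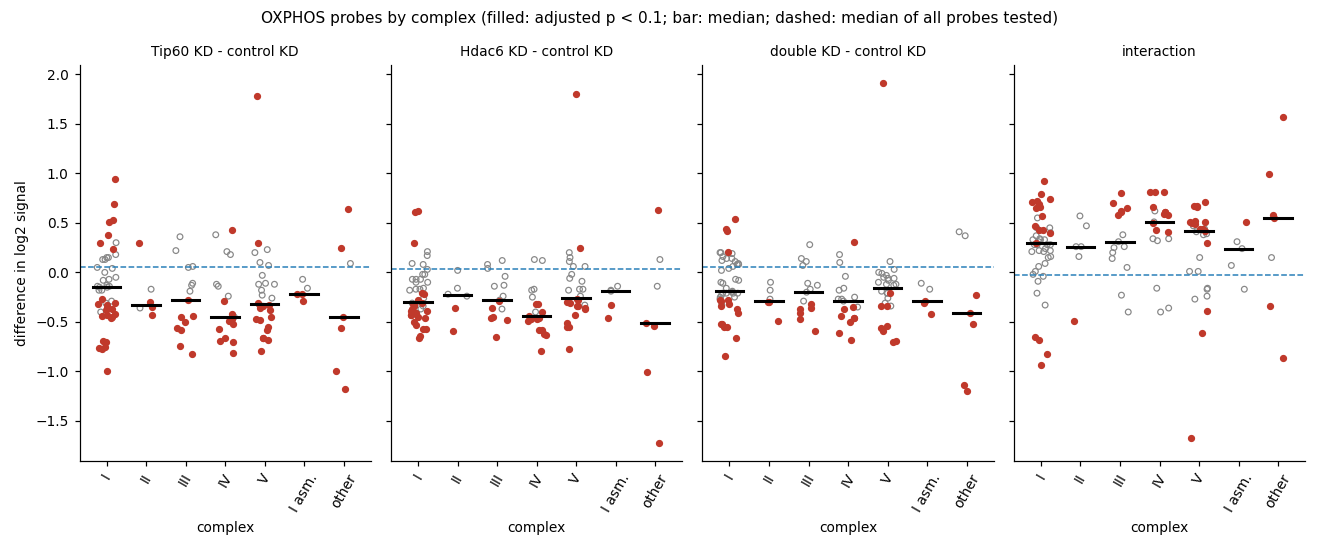
Differences in log2 signal for the 127 OXPHOS probes, 1 point per probe, grouped on the x axis by respiratory complex (I asm. stands for complex I assembly factors), in each knockdown against control KD and for the interaction. Filled points have an adjusted p under 0.1, bars are medians and the dashed line is the median of all probes tested; most points lie between 0 and -1 in the 3 knockdowns and above 0 in the interaction, with 1 complex V point near 1.8 to 1.9 in each knockdown.

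Each slide held 1 array of every group, and the replicate letter was also the slide. Within slide A the median OXPHOS difference from control KD was -0.29 in Tip60 KD, -0.29 after Hdac6 KD and -0.22 after double KD, and within slide B it was -0.25, -0.29 and -0.22. With the slide as a block, 99 probes were called in Tip60 KD (23 higher, 76 lower), 91 in Hdac6 KD (9 higher, 82 lower) and 84 in double KD (12 higher, 72 lower). That fit called more probes everywhere, with 60.6%, 53.2% and 55.8% of all probes tested. Among the 62 probes of the genes named in the text, 29 of 76 values against control KD that were not called were called with the block, and no call was lost. The adjusted p with the slide block is given beside such values below. Each group also kept its position on both slides, so position and group cannot be told apart. The same 2 control KD arrays enter all 3 comparisons, and a deviation of those arrays and a shared effect of the knockdowns cannot be told apart either. Without control KD replicate A, the median OXPHOS change was -0.22 in Tip60 KD, -0.27 after Hdac6 KD and -0.18 after double KD. In Hdac6 KD it was -0.32 without control KD replicate B, -0.30 without Hdac6 KD replicate A and -0.28 without Hdac6 KD replicate B. Fewer probes were called in each of these fits, among the OXPHOS probes and over all probes. Under quantile normalisation the split in double KD was 29 lower and 13 higher, and in the authors' processed values that in Tip60 KD was 42 lower and 16 higher. Over all probes these settings called 28.9% and 34.7%.

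Some measured properties of the probes moved with this decrease, and their part in it was not tested. One is brightness. Probes other than OXPHOS with a mean log2 signal above 4 had medians of -0.19, -0.20 and -0.22 in Tip60, Hdac6 and double KD, and the 29 OXPHOS probes of that brightness had -0.33, -0.32 and -0.25. Between 3 and 4, where 50 OXPHOS probes lay, the others had -0.06, -0.05 and -0.09 and the OXPHOS probes -0.34, -0.32 and -0.25. In double KD the OXPHOS and the other probes were thus close to each other above 4. The other is the place of the probe on the transcript. In a comparison added after the values had been seen, among 2282 genes with RefSeq-matched probes at least 500 bases apart, the 5′ probe changed more positively than the 3′ probe in 73.3% of genes after Tip60 KD (median difference 0.29), 65.0% after Hdac6 KD (0.13) and 63.8% after double KD (0.11). All 8 OXPHOS genes of this kind showed the same order in each knockdown, with median differences of 0.63, 0.27 and 0.22.

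**Figure D2:**
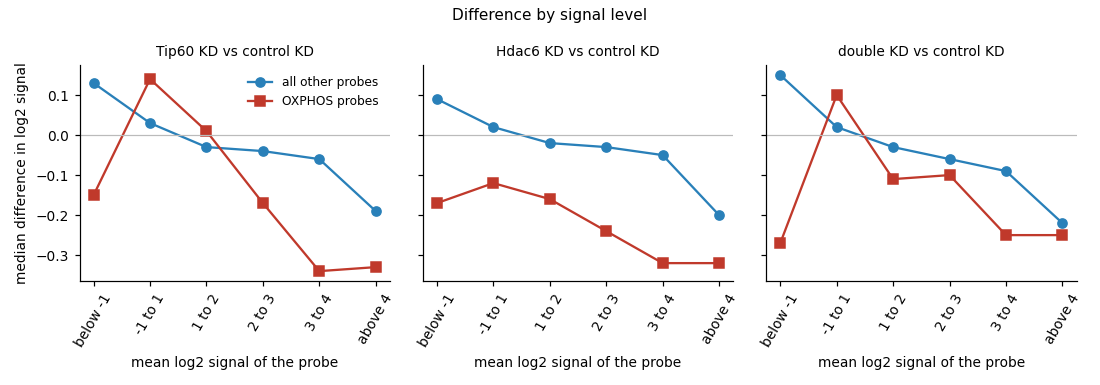
Median difference in log2 signal from control KD (y axis) for probes binned by their mean log2 signal over the 8 arrays (x axis), for the 127 OXPHOS probes and for all other probes kept. The other probes drift downward with brightness to about -0.2, and the OXPHOS probes lie lower from a signal of 2 upward, with 9 and 8 OXPHOS probes in the lowest bins.

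Complex I is the largest complex, with a peripheral arm that oxidises NADH and a membrane arm of many small accessory subunits. Of its 47 probes tested, 18 fell and 7 rose in Tip60 KD, 22 fell and 3 rose after Hdac6 KD and 13 fell and 4 rose after double KD, with medians of -0.15, -0.30 and -0.19. Called in either direction were 53.2%, 53.2% and 36.2%, against 41.3%, 30.8% and 34.6% of all probes tested. The total in double KD thus lay near the background, with 27.7% called lower against 17.9%. Accessory subunits were among the largest decreases. Ndufa13 (also known as GRIM-19) was at 3.20 and 3.32 in control KD, 2.61 and 2.52 after Tip60 KD, 2.70 and 2.54 after Hdac6 KD, and 2.82 and 2.60 after double KD. No control array overlapped a knockdown array, and the changes were -0.69 ± 0.11 (SE, n = 2 per group; adjusted p = 0.00617, limma), -0.64 ± 0.11 (adjusted p = 0.0135) and -0.55 ± 0.11 (adjusted p = 0.0186). Ndufb11, a membrane-arm subunit encoded on the X chromosome, was at 4.39 and 4.29 in control KD, 3.65 and 3.54 after Tip60 KD, 3.97 and 3.80 after Hdac6 KD, and 3.85 and 3.73 after double KD. It fell by 0.75, 0.45 and 0.55 on the log2 scale, and another probe overlapping the same site gave -0.76, -0.43 and -0.52. Ndufb4, also of the membrane arm, fell on both of its probes in each knockdown (-0.77, -0.66 and -0.52 on the dimmer one). Ndufa6 fell in Hdac6 KD (-0.57, adjusted p = 0.0241) and also in double KD (-0.66, adjusted p = 0.014), whereas its change of -0.29 in Tip60 KD did not pass (adjusted p = 0.128, and 0.057 with the slide block, limma).

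A few complex I subunits went the other way. Ndufa10, an accessory subunit of the membrane arm, was at 1.94 and 1.89 in control KD, 2.89 and 2.81 after Tip60 KD, 2.19 and 2.23 after Hdac6 KD, and 2.33 and 2.33 after double KD. It rose in each knockdown, by 0.94 ± 0.07 (adjusted p = 0.000825, limma), 0.30 (adjusted p = 0.0334) and 0.42 (adjusted p = 0.0104), and the Tip60 KD arrays stood above all others. Ndufs8, a core subunit that carries iron-sulfur clusters, was at -0.01 and 0.09 in control KD and 0.64 and 0.81 after Tip60 KD, but at 0.11 to 0.15 on the 4 Hdac6 KD and double KD arrays. Only its Tip60 KD change passed the test (0.69, adjusted p = 0.00282), and double KD was lower than Tip60 KD for both genes (-0.59, adjusted p = 0.0549 for Ndufs8, and -0.52, adjusted p = 0.0492 for Ndufa10, limma). Ndufab1, the mitochondrial acyl carrier protein, rose instead in Hdac6 KD (0.62, adjusted p = 0.0263) and also in double KD (0.54, adjusted p = 0.0357), while its change of 0.13 in Tip60 KD did not pass (adjusted p = 0.535, limma). Ndufa2 rose slightly in double KD (0.21, adjusted p = 0.0609). Ndufv1, which holds the flavin that accepts electrons from NADH, had its spot on Tip60 KD replicate A marked as an outlier and set to missing, and none of its changes passed. With the slide block its change in Tip60 KD, from the 1 array left, was 0.21 (adjusted p = 0.0941, limma).

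Ndufv3, a small flavoprotein-arm subunit, showed the widest split between probes of one gene within complex I. The brightest probe was at 4.35 and 4.30 in control KD, 3.43 and 3.23 after Tip60 KD, 3.75 and 3.83 after Hdac6 KD, and 3.62 and 3.35 after double KD, and fell by 1.00, 0.53 and 0.84. A probe 3061 bases to its 5′ side was at -1.34 and -1.44 in control KD, -0.89 and -0.84 after Tip60 KD, -0.71 and -0.85 after Hdac6 KD, and -1.19 and -1.20 after double KD, and rose in Tip60 KD (0.53, adjusted p = 0.00564) and Hdac6 KD (0.61, adjusted p = 0.00654). Both probes are matched to the same RefSeq transcript in the files. The remaining probe, matched to an Ensembl transcript, varied between slides (-0.86 and 0.59 in control KD) and passed no test.

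The complex I assembly factors named Ndufaf help to build the complex and are not part of it. All of their 5 probes changed in the negative direction in each knockdown. In Tip60, Hdac6 and double KD 3, 2 and 3 of them passed, against 41.3%, 30.8% and 34.6% of all probes tested. The lowest in each were Ndufaf4 in Tip60 KD (-0.29, adjusted p = 0.06), Ndufaf1 in Hdac6 KD (-0.46, adjusted p = 0.0125) and Ndufaf3 in double KD (-0.42, adjusted p = 0.0222, limma).

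Complex II, succinate dehydrogenase, also works in the tricarboxylic acid cycle and is wholly nuclear-encoded. Of its 6 probes, 3 fell and 1 rose in Tip60 KD, 2 fell after Hdac6 KD and 3 fell after double KD, with medians of -0.32, -0.23 and -0.28. Sdhd, a membrane anchor, was at 3.59 and 3.58 in control KD, 3.02 and 3.43 after Tip60 KD, 2.99 and 3.00 after Hdac6 KD, and 3.02 and 3.17 after double KD. It fell in Hdac6 KD (-0.59, adjusted p = 0.0342) and also in double KD (-0.49, adjusted p = 0.0555), while its change of -0.36 in Tip60 KD did not pass (adjusted p = 0.107, and 0.0394 with the slide block, limma). Sdha, the flavin subunit, was called in Hdac6 KD (-0.36, adjusted p = 0.0562) and not in Tip60 KD (-0.17, adjusted p = 0.279) or double KD (-0.27, adjusted p = 0.114, limma). With the slide block these had adjusted p-values of 0.0954 and 0.0267 (limma). Sdhb, the iron-sulfur subunit, had 2 probes 5446 bases apart that were called in opposite directions in Tip60 KD. The 3′ probe fell by 0.35 (adjusted p = 0.0384), and the 5′ probe rose by 0.30 (adjusted p = 0.0507, limma), from 3.05 and 3.10 in control KD to 3.41 and 3.34. Sdhc, the other anchor, fell on both of its probes in Tip60 KD (-0.30 and -0.43), on 1 of them in double KD (-0.30), and on neither in Hdac6 KD (-0.16 and -0.24).

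Complex III passes electrons from quinol to cytochrome c. Of 15 probes, 8 fell in Tip60 KD, 6 after Hdac6 KD and 6 after double KD, with medians of -0.28, -0.28 and -0.20, and none was called higher. The shares called were 53.3%, 40.0% and 40.0%, against 41.3%, 30.8% and 34.6% of all probes tested. Uqcrh, the hinge protein that docks cytochrome c1, was at 4.62 and 4.60 in control KD, 4.11 and 3.94 after Tip60 KD, 4.52 and 4.42 after Hdac6 KD, and 4.28 and 4.11 after double KD. It fell in Tip60 KD (-0.58, adjusted p = 0.00757) and also in double KD (-0.41, adjusted p = 0.0313) but was not called in Hdac6 KD (-0.14, adjusted p = 0.399), and Tip60 KD lay below Hdac6 KD by a called difference of -0.44 (adjusted p = 0.0333, limma). Its other probe gave -0.82, -0.28 and -0.47, with the same calls (in Hdac6 KD an adjusted p of 0.105, and 0.0318 with the slide block, limma). Uqcr10, a small subunit, fell in each knockdown on its brightest probe (-0.56, -0.46 and -0.37) and on another (-0.74, -0.65 and -0.59). Its 5′ probe was not called in any knockdown (-0.13, -0.37 and -0.11). The core subunits Uqcrc1, Uqcrc2 and Uqcrfs1 differed: Uqcrc2 was at -0.28, -0.29 and -0.36, each called, while Uqcrc1 (0.22, -0.13 and -0.13) and Uqcrfs1 (-0.19, -0.24 and -0.17) had no call. Within slides, Uqcrc1 differed from control KD by 0.20 and 0.24 in Tip60 KD, and Uqcrfs1 by -0.23 and -0.25 in Hdac6 KD. With the slide block, Uqcrc1 was called higher in Tip60 KD (adjusted p = 0.0216) and Uqcrfs1 lower in each knockdown (adjusted p = 0.0522, 0.0323 and 0.081, limma). Uqcr11 and Uqcrq had no called probe in any knockdown, and with the slide block 1 probe of each was called higher, Uqcr11 in double KD (0.28, adjusted p = 0.0706) and Uqcrq in Tip60 KD (0.36, adjusted p = 0.0122, limma).

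Complex IV, cytochrome c oxidase, hands electrons to oxygen, and its nuclear subunits surround a core made from mitochondrial DNA. The median change of its probes was -0.45 after Tip60 KD, -0.44 after Hdac6 KD and -0.29 after double KD. Of 19 probes, 11 fell and 1 rose in Tip60 KD, 13 fell after Hdac6 KD and 8 fell and 1 rose after double KD. That is 63.2%, 68.4% and 47.4% called, against 41.3%, 30.8% and 34.6% of all probes tested. Cox5b, which binds zinc, was at 4.21 on both control KD arrays, 3.31 and 3.48 after Tip60 KD, 3.70 and 3.78 after Hdac6 KD, and 3.48 and 3.59 after double KD. It fell to 56.8% of control in Tip60 KD (-0.81 ± 0.09, adjusted p = 0.00188), 72.0% after Hdac6 KD (adjusted p = 0.0167) and 62.6% after double KD (adjusted p = 0.00512, limma). The files place this probe on chromosome 15 and another, which fell by 0.66, 0.44 and 0.61, on chromosome 1. The 2 share at least 20 bases in a row, so copies of the gene cannot be separated here. Cox6c was at 4.98 and 4.71 in control KD, 4.25 and 4.04 after Tip60 KD, 4.26 and 4.19 after Hdac6 KD, and 4.49 and 4.20 after double KD, with changes of -0.70, -0.62 and -0.50. Ndufa4, long listed with complex I by name and now placed with complex IV, fell in Tip60 KD and Hdac6 KD (-0.47 and -0.40) and was at -0.27 after double KD, not called (adjusted p = 0.157, or 0.0118 with the slide block, limma).

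Some complex IV subunits have isoforms that stand in for the common form in particular tissues. Cox7a1, the heart and muscle form of Cox7a, had the largest difference between Tip60 KD and Hdac6 KD among the OXPHOS probes. It was at 1.33 and 1.46 in control KD, 1.79 and 1.87 after Tip60 KD, 0.50 and 0.72 after Hdac6 KD, and 1.70 and 1.71 after double KD. It rose in Tip60 KD (0.43 ± 0.10, adjusted p = 0.0208) and also in double KD (0.31, adjusted p = 0.0725) and fell in Hdac6 KD (-0.79, adjusted p = 0.00581), and Tip60 KD exceeded Hdac6 KD by 1.22 (adjusted p = 0.00269, limma). The common form Cox7a2 fell in Tip60 KD (-0.52) and Hdac6 KD (-0.58) and was at -0.29 after double KD (adjusted p = 0.233, or 0.0145 in the slide-block fit, limma). Cox6b2, the testis form of Cox6b, fell in each knockdown (-0.49, -0.46 and -0.37), from 1.31 and 1.40 to between 0.81 and 1.02. The common form Cox6b1 was not called (0.38, 0.12 and 0.10), and its value in Tip60 KD had an adjusted p of 0.0324 with the slide block (limma). Cox4i2, an isoform known from lung and induced by low oxygen, was at -0.78 and -0.82 in control KD and from -1.35 to -0.67 on the knockdown arrays, with no called change. Cox6a2, a muscle form, was at the floor on all slide A arrays and between -2.37 and -1.95 on slide B.

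Complex V couples the proton flow to ATP synthesis. Of its 28 probes, 14 fell and 2 rose in Tip60 KD, 13 fell and 2 rose after Hdac6 KD and 8 fell and 1 rose after double KD, with medians of -0.32, -0.26 and -0.16. Called in either direction were 57.1%, 53.6% and 32.1%, against 41.3%, 30.8% and 34.6% of all probes tested. The total in double KD thus lay just below the background, with 28.6% called lower against 17.9%. Atp5h, the stator subunit d, was at 4.51 and 4.60 in control KD, 3.85 and 3.94 after Tip60 KD, 3.94 and 4.07 after Hdac6 KD, and 3.97 and 4.06 after double KD. It fell by 0.66, 0.55 and 0.54, and its other probe by 0.68, 0.55 and 0.56. Atp5d, the delta subunit of the rotor, rose in Tip60 KD (0.30, adjusted p = 0.0217) and Hdac6 KD (0.25, adjusted p = 0.0545) and was at -0.06 in double KD (adjusted p = 0.57, limma). The catalytic beta subunit Atp5b, a bright probe at 6.80 and 6.60 in control KD, was called in Hdac6 KD (-0.34) and not in Tip60 KD (-0.23, adjusted p = 0.118, and 0.0599 with the slide block, limma) or double KD (-0.19).

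The c subunit genes did not move together. The Atp5g1 RefSeq probe, the one ending in CAA repeats, was at 2.89 and 2.87 in control KD, 4.70 and 4.62 after Tip60 KD, 4.76 and 4.59 after Hdac6 KD, and 4.91 and 4.66 after double KD. Every knockdown array stood well apart from both control arrays. The increases were 3.44-fold in Tip60 KD (1.78 ± 0.11, adjusted p = 0.000598), 3.47-fold after Hdac6 KD (1.80 ± 0.11, adjusted p = 0.00144) and 3.75-fold after double KD (1.91 ± 0.11, adjusted p = 0.000929, limma), the largest increases among the OXPHOS probes in each comparison. Differences among the knockdowns were near their error on this probe: Tip60 KD minus Hdac6 KD was -0.01 (SE 0.11), and double KD minus Tip60 KD was 0.12 (SE 0.11).

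The Atp5g1 Ensembl probe gave another picture, and it lies too far from the RefSeq probe for the RefSeq gene span to hold both. Whether its signal comes from Atp5g1 was not tested. This Ensembl probe was dim, at -0.80 and -0.89 in control KD, -1.48 and -1.53 after Tip60 KD, -0.52 and -0.76 after Hdac6 KD, and -1.56 and -1.53 after double KD. It fell in Tip60 KD (-0.66 ± 0.10, adjusted p = 0.00481) and also in double KD (-0.70, adjusted p = 0.00599), and its change in Hdac6 KD was 0.20 (adjusted p = 0.214, and 0.0816 with the slide block, limma). Tip60 KD lay below Hdac6 KD by a called -0.86 (adjusted p = 0.00517, limma), and the 4 arrays with Tip60 knocked down were below the 4 others, an order that the RefSeq probe did not show. Other probes share the CAA run of the RefSeq probe and were looked up after its value was seen. Of 7 probes on the array with 5 or more CAA units in a row, 6 were kept, and the other 5 changed by 0.09 to 1.05 in Tip60 KD, 0.00 to 0.64 in Hdac6 KD and 0.02 to 0.57 in double KD. The largest of these in Tip60 KD was that of an Ngfrap1 probe, at 2.22 and 2.25 in control KD and 3.32 and 3.26 after Tip60 KD. Of these 5, 3 were called higher in Tip60 KD (the Ngfrap1 probe and both Brsk1 probes, with 0.62 and 0.53), 1 in Hdac6 KD (Ngfrap1, 0.64) and 2 in double KD (Ngfrap1, 0.39, and a Brsk1 probe, 0.57), and none was called lower. Over all probes tested, 20.2%, 14.8% and 16.8% were called higher, and 5 probes are too few to compare with that. The probe with the smallest change in each knockdown lay at or near the floor on every array. The part of the repeat in the Atp5g1 value was not tested.

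Atp5g2 had 2 adjoining probes. The one with the larger changes was at 4.23 and 4.26 in control KD, 3.49 and 3.84 after Tip60 KD, 3.39 and 3.55 after Hdac6 KD, and 3.41 and 3.69 after double KD, and fell by 0.58, 0.77 and 0.69. The other was at 3.90 and 4.0 in control KD and between 3.57 and 3.93 on the knockdown arrays, and none of its changes passed (-0.03, -0.24 and -0.26), while with the slide block the last 2 had adjusted p-values of 0.0461 and 0.035 (limma). Atp5g3 was at 5.14 and 5.17 in control KD, 4.80 and 4.85 after Tip60 KD, 5.11 and 5.17 after Hdac6 KD, and 5.09 and 5.12 after double KD. It fell in Tip60 KD alone by this threshold (-0.33, adjusted p = 0.0142), and Tip60 KD lay below Hdac6 KD by -0.32 (adjusted p = 0.0302, limma).

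**Figure D3:**
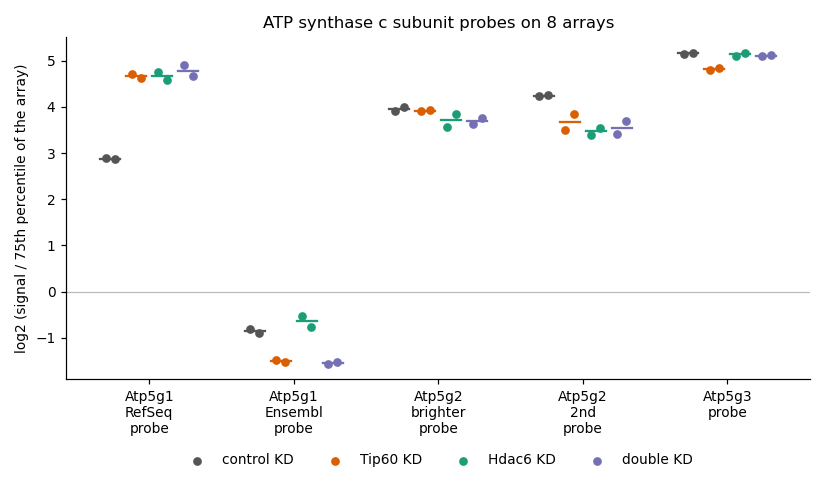
log2 signal over the array's 75th percentile (y axis) for the 5 probes of the c subunit genes, 1 point per array with the mean of the 2 arrays of a group as a bar. The Atp5g1 RefSeq probe is near 2.9 in control KD and between 4.59 and 4.91 in the 6 knockdown arrays, while the Atp5g1 Ensembl probe is lower in Tip60 KD and double KD; levels of different probes are not comparable.

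Some genes matched the rule by name but are not subunits of the complexes, or only in part. Ndufa4l2, a paralog of Ndufa4 known as a hypoxia target, was at 2.10 and 2.12 in control KD, 1.16 and 1.08 after Tip60 KD, 0.44 and 0.35 after Hdac6 KD, and 1.08 and 0.85 after double KD. It fell to 50.2% of control in Tip60 KD (adjusted p = 0.00148), 30.4% after Hdac6 KD (adjusted p = 0.00139) and 45.2% after double KD (adjusted p = 0.00179), and Hdac6 KD lay below Tip60 KD (difference 0.72 for Tip60 KD minus Hdac6 KD, adjusted p = 0.00827, limma). Atp5s, also called factor B, was at -0.59 and -0.80 in control KD and between -1.97 and -1.63 on the 6 knockdown arrays, with falls of 1.18, 1.01 and 1.20. Cox7a2l, which takes part in joining complexes III and IV, fell on its 2 brighter probes in each knockdown (-0.56, -0.54 and -0.52 on the brighter of them), while its dimmest probe rose in Tip60 KD (0.25, adjusted p = 0.0492) and fell in double KD (-0.23, adjusted p = 0.0802, limma). Cox4nb, whose current symbol is Emc8 and which belongs to a membrane complex of the endoplasmic reticulum, rose in Tip60 KD (0.64) and Hdac6 KD (0.63) and was at 0.41 in double KD, not called (adjusted p = 0.116, or 0.00322 under the slide block, limma). Atp5sl was not called in any knockdown, with 0.37 in double KD at an adjusted p of 0.179, or 0.00758 under the slide block (limma).

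**Figure D4:**
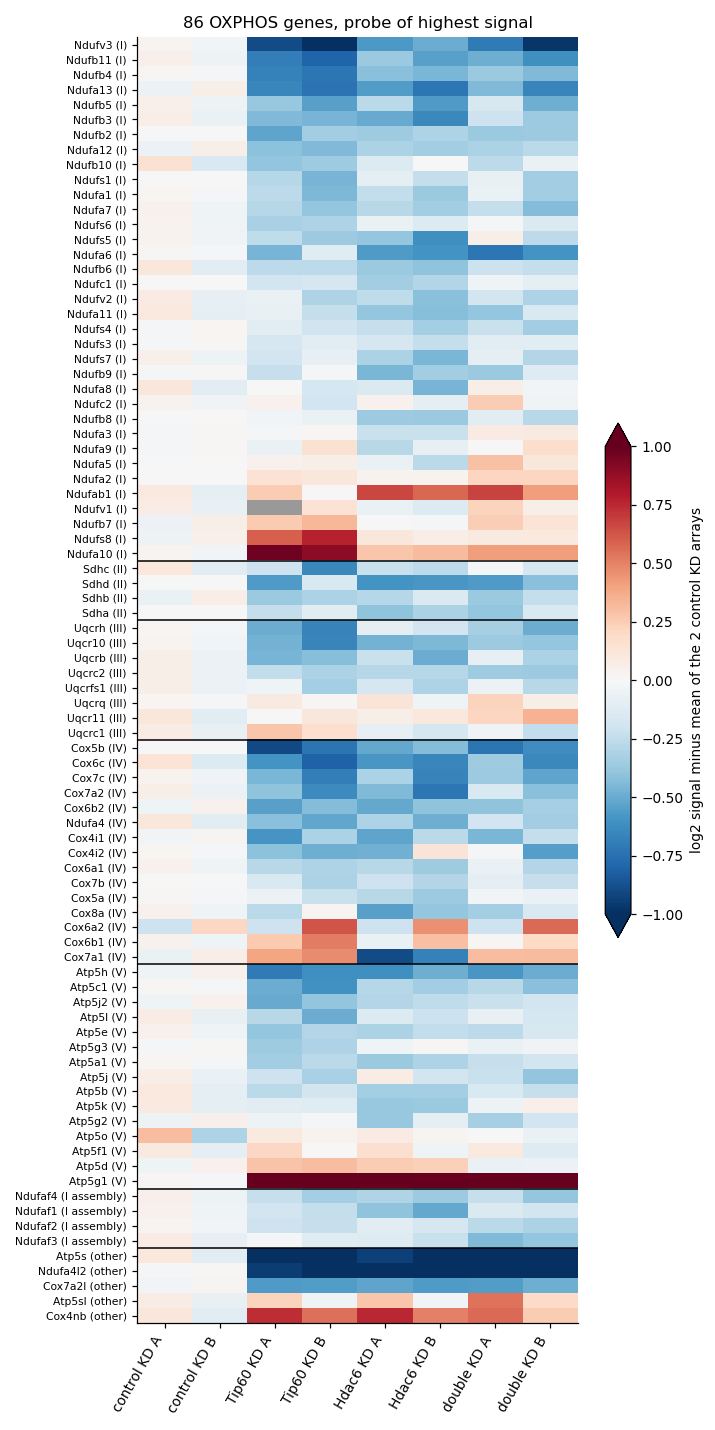
log2 signal minus the mean of the 2 control KD arrays for the brightest kept probe of 86 of the 87 OXPHOS genes (rows, with the complex in brackets) on the 8 arrays (columns). Blue is below control and red above, with the scale ending at 1, and grey is a missing spot; blue prevails in the 6 knockdown columns, and Atp5g1, Ndufa10 and Cox4nb are among the red rows.

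Direct comparisons between knockdowns gave fewer OXPHOS calls. Between Tip60 KD and Hdac6 KD, 25 of 127 probes were called (19.7%, against 24.5% of all probes), 15 higher and 10 lower in Tip60 KD, with a median difference of 0.01. Those higher included Cox7a1, Ndufa10 (0.64) and Ndufs8 (0.60), and those lower included Uqcrh and the Atp5g1 Ensembl probe. Between double KD and Tip60 KD, 7 probes were called (5.51%, against 5.32% of all probes), all lower in double KD (with quantile normalisation 5 lower and 2 higher), and a fit of those 4 arrays alone or of any 7 of the 8 arrays called none (limma, with 15 to 21 probes at an unadjusted p under 0.05). With the slide as a block, 54 probes were called in the Tip60 KD to Hdac6 KD comparison (34 higher, 20 lower) and 34 between double KD and Tip60 KD (18 higher, 16 lower). In that fit 42.2% and 27.9% of all probes were called, so both counts lay near the background.

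For most OXPHOS probes the change in double KD was less negative than both single changes added together. The interaction (double KD minus Tip60 KD minus Hdac6 KD plus control KD) had a median of 0.34 against -0.03 for all probes, and 59 of 127 were called, 49 of them higher and 10 lower. Across all probes 24.3% were called, 12.4% higher and 11.9% lower. A positive value arises, for example, where a transcript was lower in both single knockdowns and no lower still in the double. Of the 28 complex V probes, 13 were called higher and 3 lower, and of the 19 complex IV probes 11 were called higher and none lower. Ndufa4l2 had the largest value (1.57, adjusted p = 0.00653), followed by Atp5s (0.99, adjusted p = 0.0154) and Ndufb4 (0.92, adjusted p = 0.00783, limma). The Atp5g1 RefSeq probe had the most negative (-1.67, adjusted p = 0.00675, limma), since its increase in double KD was about that in either single knockdown. The control KD arrays enter this value too. The Hdac6 transcript was at 17.7% of control in Hdac6 KD and 27.2% in double KD, so its knockdown was shallower in double KD. The part of that difference in the interaction was not tested. The interaction was called for 92 probes with the slide as a block (78 higher, 14 lower), where 47.7% of all probes were called. Its median was 0.32 without control KD replicate A, 0.33 without Tip60 KD replicate B, 0.33 without Hdac6 KD replicate B and 0.32 without double KD replicate A. Fewer probes were called in these fits with 1 array left out, among the OXPHOS probes and over all probes.

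Other genes of the pathway were counted by their probe of highest signal, from lists chosen with earlier results in view. The background over all genes so counted was 40.7% called for Tip60 KD, 30.3% for Hdac6 KD and 34.0% for double KD. Of 30 assembly factors kept, 11 fell and 6 rose in Tip60 KD, 11 fell and 4 rose after Hdac6 KD and 7 fell and 5 rose after double KD. Uqcc2, an assembly factor of complex III, fell in each (-0.57, -0.81 and -0.63), as did Tmem70, which serves complex V (-0.59, -0.45 and -0.63), and Oxa1l, which inserts proteins into the inner membrane (-0.62, -0.55 and -0.53). Sdhaf2, which helps to add the flavin to Sdha, rose in each (0.71, 0.57 and 0.74). Of 14 carriers of electrons, ATP and other solutes, 7 fell and 1 rose in Tip60 KD, 4 fell and 1 rose after Hdac6 KD and 7 fell after double KD. With the slide block, 16 of 30 assembly factors were called lower and 6 higher in double KD, and 14 lower and 5 higher in Hdac6 KD. Of 14 carriers, 11 were called lower and 1 higher in double KD, and 8 lower and 1 higher in Hdac6 KD. That fit called 55.8% of all probes in double KD and 53.2% in Hdac6 KD. Slc25a3, the phosphate carrier, fell in each (-0.51, -0.35 and -0.49), and Vdac1, the outer membrane channel, likewise (-0.63, -0.46 and -0.36).

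Of 14 regulators of mitochondrial biogenesis and transcription kept, 5 fell and 4 rose in Tip60 KD, 3 fell and 3 rose after Hdac6 KD and 4 fell and 3 rose after double KD. Esrra, an orphan nuclear receptor that activates OXPHOS genes, was at 0.04 and -0.12 in control KD, -1.26 and -1.60 after Tip60 KD, 0.02 and -0.28 after Hdac6 KD, and -0.83 and -0.97 after double KD. It fell in Tip60 KD (-1.39, adjusted p = 0.00203) and also in double KD (-0.86, adjusted p = 0.0131) and was not called in Hdac6 KD (-0.09, adjusted p = 0.764, limma). Yy1 fell in each knockdown (-0.34, -0.36 and -0.40). Nrf1 rose in Hdac6 KD (0.50) and double KD (0.38) and was at -0.04 in Tip60 KD, not called. The coactivators Ppargc1a and Ppargc1b were below the filter.

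The subunits made from mitochondrial DNA had medians of 0.21, 0.20 and 0.22 in Tip60, Hdac6 and double KD. Of 13 such transcripts, 4 rose and 2 fell in Tip60 KD, 5 rose after Hdac6 KD and 5 rose after double KD. Over all genes counted by 1 probe, 21.4%, 16.2% and 17.9% were called lower and 19.3%, 14.1% and 16.2% higher. Read against that background 2, 0 and 0 lower calls of 13 show nothing particular to these genes. The higher calls, 4, 5 and 5 of 13, were a larger share than the background, which is a description and not a test. With the slide block, ND6 was also called lower in Hdac6 KD and double KD (-0.41 and -0.28). In that fit 6, 7 and 6 of the 13 were called higher in Tip60, Hdac6 and double KD, and 2, 1 and 1 lower. Of all probes, 60.6%, 53.2% and 55.8% were called in either direction. The calls of these 13 in both directions together thus lay near the background. ND1, a complex I subunit, was at 3.77 and 3.69 in control KD, 4.86 and 4.63 after Tip60 KD, 4.78 and 4.64 after Hdac6 KD, and 4.35 and 4.33 after double KD. It rose by 1.01 (adjusted p = 0.00157), 0.98 (adjusted p = 0.00353) and 0.61 (adjusted p = 0.0102, limma). ND4L and ATP8 rose in each as well (0.46, 0.76 and 0.75 for ND4L; 0.70, 0.50 and 0.38 for ATP8). COX1, ND4 and COX3 changed by no more than 0.16 in either direction and passed no test. ND3 (-0.21) and ND6 (-0.44) fell in Tip60 KD.

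**Figure D5:**
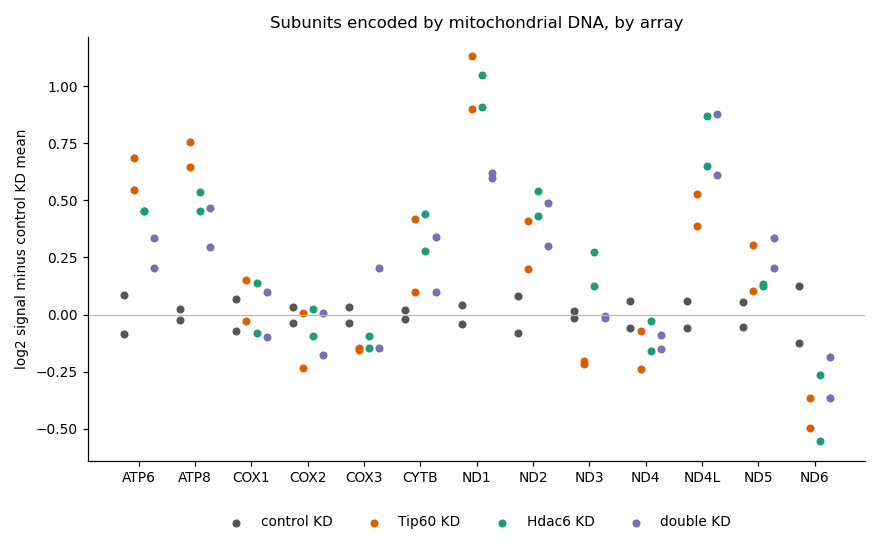
log2 signal minus the mean of the 2 control KD arrays (y axis) for the 13 subunit transcripts of mitochondrial DNA (x axis), 1 point per array and the probe of highest signal for each. ND1 lies between about 0.6 and 1.1 above control in all 6 knockdown arrays, ND4L and ATP8 also lie above it, and COX1 and ND4 stay near 0.

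Promoters in the RefSeq table (build GRCm38.p6, 250 bases before to 50 after each start) were found for 74 OXPHOS gene symbols, with 80 promoters, and for 32851 promoters in all. Cores of factors known to act on OXPHOS genes were searched on both strands. The NRF1 core GCATGCGC was in 13.8% of OXPHOS promoters and 2.71% of all, the YY1 core AAGATGGC in 15.0% and 2.75%, and the ETS core CCGGAAGT, which GABPA can bind, in 6.25% and 3.89%. The E-box CACGTG, added after the sequences had been seen, was in 11.2% and 7.15%. OXPHOS genes with the NRF1 core had median changes of -0.15, -0.30 and -0.18 in Tip60, Hdac6 and double KD (11 genes), against -0.24, -0.31 and -0.21 for those without it (61 genes). The medians were taken over genes with a kept probe. For the YY1 core these were -0.14, -0.22 and -0.08 (11 genes) against -0.29, -0.32 and -0.25 (61 genes), for the ETS core -0.14, -0.21 and -0.25 (5 genes) against -0.24, -0.31 and -0.21 (67 genes), and for the E-box 0.09, -0.02 and -0.01 (7 genes, Atp5g1 among them) against -0.24, -0.32 and -0.23 (65 genes). The 250 bases before the start of 3 complex V genes that changed differently are shown, on the minus strand, with matched cores in capitals: the E-box in Atp5g1, whose RefSeq probe rose, the NRF1 core in Atp5g2, matched on both strands with overlap, whose probes differed, and the ETS core, read on the opposite strand, in Atp5h, which fell.
Atp5g1, chr11:96075632-96075881: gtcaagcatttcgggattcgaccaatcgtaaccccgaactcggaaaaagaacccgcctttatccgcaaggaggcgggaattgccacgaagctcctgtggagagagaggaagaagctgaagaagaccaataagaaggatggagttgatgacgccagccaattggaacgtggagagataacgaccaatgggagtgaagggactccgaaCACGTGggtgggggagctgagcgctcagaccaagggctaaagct
Atp5g2, chr15:102671048-102671297: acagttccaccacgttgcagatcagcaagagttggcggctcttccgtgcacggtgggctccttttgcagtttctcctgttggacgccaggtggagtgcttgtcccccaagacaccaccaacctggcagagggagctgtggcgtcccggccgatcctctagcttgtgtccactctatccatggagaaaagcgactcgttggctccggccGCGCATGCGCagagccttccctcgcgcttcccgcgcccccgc
Atp5h, chr11:115419920-115420169: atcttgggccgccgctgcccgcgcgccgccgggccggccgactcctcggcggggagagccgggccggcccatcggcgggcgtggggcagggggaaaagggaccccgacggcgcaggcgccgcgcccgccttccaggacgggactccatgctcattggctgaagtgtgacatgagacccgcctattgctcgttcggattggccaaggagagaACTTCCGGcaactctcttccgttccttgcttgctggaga
A match says only that these letters are in the window.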

How the data were processed

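Cy3-labelled cRNA from 8 ESC samples was hybridised to 1-colour Agilent arrays and quantified by the authors with Feature Extraction (version 10.7.1.1, per the submitters' processing notes). The deposited scanner files hold fluorescence intensity, with a processed signal already background-subtracted by that software and not scaled between arrays. Log2 values computed by the authors were deposited as well, in the series matrix, which ranked probes as the median signal did. How it was made is not given in the sources used here, so it served as an alternative only.

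Spots marked as outliers were set to missing and spots of a probe averaged. The processed signal was divided by each array's 75th percentile, raised to 0.1454 of that percentile (the highest, over arrays, of the lowest signal well above background) and log2-transformed. Probes well above background and above this floor on at least 2 arrays were kept. Groups were compared with limma 3.58.1 (R 4.3.3; lmFit, eBayes, two-sided) over all 8 arrays. The small number of arrays limits precision. Replicates are biological per the series' design text. Slide letters paired the arrays: deviations from group means correlated at 0.645 to 0.786 between groups, and the file headers show 1 slide per letter. The fit was tested on simulated data. Members and gene lists were chosen with earlier results of these data known. Genes were named by a rule: the c subunit and complex II probes, the 5 largest called increases and decreases in each knockdown, the extremes of each complex, genes with opposing probes and tissue-restricted isoforms. Other genes named as contrasts or from the pathway lists were chosen after their values were seen. Alternatives covered scaling, background, source of values, floor, filter, block, arrays used, probes per gene, threshold and each array left out. The class of Cox4nb, the comparison of 5′ with 3′ probes, the CAA-repeat probes and the E-box search were added after seeing the data. No protein sequences were used here. One OXPHOS gene is counted with the others but is not reported by name here.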

Additional observations from a re-analysis of the deposited data

Results flagged for a closer look

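Among the 62 probes of the OXPHOS genes named in the text, 33 had an interaction past the threshold (adjusted p under 0.1, limma), so the change with Tip60 knocked down differed between cells with and without Hdac6 knockdown. The control KD arrays enter each of these values. Hdac6 was knocked down less deeply in double KD (27.2% of control) than in Hdac6 KD (17.7%). The cause of the interactions was not tested. In complex I these were Ndufa13 (0.79), Ndufb11 (0.65 and 0.66), Ndufb4 (0.92 and 0.72), Ndufa10 (-0.82), Ndufs8 (-0.68), and Ndufv3 on its brightest (0.69) and 5′ (-0.94) probes. The assembly factor Ndufaf1 had 0.51, the 5′ probe of Sdhb -0.49 Uqcr10 0.65 and 0.80, and 1 probe of Uqcrh 0.62. In complex IV the values were 0.66 for Cox7a1, 0.58 for Cox6b2, 0.81 for Cox6c, 0.81 for Cox7a2, 0.61 for Ndufa4, and 0.61 and 0.50 for Cox5b. In complex V they were -1.67 for the RefSeq probe of Atp5g1, 0.66 for Atp5g2, 0.30 for Atp5g3, -0.61 for Atp5d and 0.67 for each of the Atp5h probes. Among the genes matched by name, Ndufa4l2 had 1.57, Atp5s 0.99, Cox4nb -0.86, and Cox7a2l 0.58, 0.55 and -0.34 on its 3 probes. Of these 33 interactions, 16 stayed called under all 16 alternatives counted for each, and 7 under fewer than 8. These 7 were Atp5g2 (6), Atp5g3 (5), the Cox5b probe at 0.50 (4), Cox6c (7), Ndufa4 (7) and Cox7a2l on 2 of its probes (4 and 6).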

How the results depend on the processing

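No named call changed direction under any alternative: of 143 called values, 74 stayed called throughout. The Atp5g1 RefSeq probe stayed called under all 17 alternatives counted for it, from 1.74 to 1.88 in Tip60 KD, 1.71 to 1.91 in Hdac6 KD and 1.78 to 2.09 in double KD. The median OXPHOS change stayed below 0 in each knockdown, from -0.32 to -0.17 in Tip60 KD, -0.32 to -0.21 in Hdac6 KD and -0.24 to -0.10 in double KD. With the slide as a replicate block, 84 OXPHOS probes were called in double KD (52 without), 54 between Tip60 KD and Hdac6 KD (25 without), 34 between double KD and Tip60 KD (7 without) and 92 in the interaction (59 without). Over all probes tested that fit called 55.8%, 42.2%, 27.9% and 47.7%, against 34.6%, 24.5%, 5.32% and 24.3% without the block. The block moved the counts in Tip60 KD and Hdac6 KD by less than 1.5 times. With 1 probe per gene, fewer probes could be called, and the counts were 48 in Tip60 KD, 33 in double KD, 16 between Tip60 KD and Hdac6 KD, 3 between double KD and Tip60 KD and 37 in the interaction. Over all genes the shares called were 40.4%, 33.7%, 24.0%, 4.07% and 23.1%. The authors' processed values gave 41 in Hdac6 KD, 29 in double KD and 1 between double KD and Tip60 KD. Over all probes they gave 22.1%, 23.8% and 0.822%, so the total in double KD lay near its background. Between Tip60 KD and Hdac6 KD, 13 were called at an adjusted p under 0.05, 16 after median centring and 10 from the arrays compared alone. Over all probes these settings called 17.6%, 20.7% and 15.6%. Between double KD and Tip60 KD the counts were 1 at 0.05, 4 after median centring, 1 with normexp, 4 with the same background on every array, 13 without the filter and 0 from the arrays compared alone (15 at an unadjusted p under 0.05). Over all probes the shares were 0.799%, 2.09%, 0.777%, 2.4%, 3.0% and 0.0%. The interaction had 35 at 0.05, against 16.0% of all probes. Leaving out 1 array at a time, a lone array being assumed to vary like the others, gave 45 to 71 in Tip60 KD, 25 to 67 in Hdac6 KD, 29 to 48 in double KD, 7 to 20 between Tip60 KD and Hdac6 KD, 0 in each case between double KD and Tip60 KD (limma, with 16 to 21 at an unadjusted p under 0.05), and 28 to 42 in the interaction. Causes of these shifts were not tested. Dim probes are bounded by the floor.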
